A study of Homo sapiens with 9 samples.

Results

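The genes described here are the pair knocked out in this study, APOB and MTTP, and genes grouped with them for lipoprotein assembly. The latter are P4HB, PDIA2, TM6SF2, SAR1B, SURF4, CIDEB and PLTP. Of these, PDIA2 is a relative of P4HB and is given no role in assembly here. All were chosen by gene name, as 9 of the 58735 genes listed in the deposited files, and each name matched 1 gene. Of the 9 genes, 8 had counts and passed the filter on low counts in all 3 comparisons. CIDEB was listed at 0 counts in every library and could not be tested.

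Messenger RNA was sequenced from Huh-7 cells, an established line from a human hepatoma that makes and secretes apoB lipoproteins, and from 2 knockout clones derived from it. The groups were Huh-7 control cells of WT genotype, Ako-3 cells with an APOB knock out and Mko-3 cells with an MTTP knock out, with 3 biological replicates each and 9 libraries in all. Cells of every group were grown to near confluence, washed and kept overnight in serum-free medium before RNA was isolated. With that step no group was measured in the presence of serum. The paper's methods, however, name it for secreted proteins and not for RNA. Each knockout is represented by 1 clone, and the same Huh-7 libraries are the control of both. A difference between clones that was present before editing cannot be told apart from an effect of the knockout.

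ApoB is the large structural protein of very low density lipoproteins, and 1 copy stays with each particle from synthesis to clearance. While apoB is translated into the lumen of the endoplasmic reticulum (ER), microsomal triglyceride transfer protein (MTP), a complex of the MTTP product with the disulfide isomerase encoded by P4HB, loads it with lipid. Further lipid is added with the help of TM6SF2, CIDEB and PLTP, and the particle leaves the ER in COPII-coated carriers that need the GTPase SAR1B and the cargo receptor SURF4. ApoB that is not loaded with lipid is held by chaperones and degraded.

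The reference sequence of the exon targeted in Ako-3 cells is shown first, because the APOB values are read against it. The paper reports a few point mutations and a deletion in this clone, which the reference does not show. On the hg38 reference with the GENCODE annotation, APOB is transcribed from the minus strand of chromosome 2 (chr2:21001429-21044073 in the files) and its canonical transcript has 29 exons. The guide RNAs were directed at exon 6, at chr2:21037100-21037255, a coding exon of 156 bases. Its reference sequence is given 5′ to 3′ on the transcribed strand.
APOB exon 6: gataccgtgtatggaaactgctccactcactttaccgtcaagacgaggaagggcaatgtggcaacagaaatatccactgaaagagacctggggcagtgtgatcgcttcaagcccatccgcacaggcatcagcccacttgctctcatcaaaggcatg
The exon holds 52 whole codons with 0 bases left over. The coding sequence before it makes up 3.92% of the 13689 coding bases, and the exon itself is 1.05% of the 14828 bases over which the authors counted APOB. A count over the whole gene therefore comes almost entirely from sequence outside the edited exon, and it does not show whether a transcript is edited.

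The primers of the study place its other measurements of the same genes. The genomic pair flanks the edited exon from the introns on both sides, at chr2:21037330-21037352 and chr2:21036999-21037018, and encloses 354 bases of the reference. The pair used for APOB mRNA lies in exon 26, at chr2:21006433-21006452 and chr2:21006277-21006296, downstream of the edited exon. The pair used for MTTP mRNA lies in exons 2 and 3, at chr4:99582035-99582055 and chr4:99583479-99583499, and its amplicon is 184 bases of the transcript. Each primer matched 1 site at its gene. No capitals are used, as every primer matched over its full length.
APOB genomic forward: tctgctttttctttcacgatccc
APOB genomic reverse: gcaggctgtcctcaaaggtg
APOB mRNA forward: cgctaaaggagcagttgacc
APOB mRNA reverse: tcactgaagaccgtgtgctc
MTTP mRNA forward: tgtggccttactatggaggaa
MTTP mRNA reverse: aaggagcgtaggtctttgcag

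The libraries held 14638727 to 20179760 counts. The cells expressed the 9 hepatocyte markers examined, ALB and AFP among them, with a summed level of 4915 to 5073 FPKM in Huh-7, 5681 to 5923 in Ako-3 and 4836 to 5052 in Mko-3 cells. Within this sum ALB was at 2547, 2595 and 1833 and AFP at 1050.2, 1168 and 1840.2 FPKM on average in the 3 groups, so they moved in opposite directions in Mko-3. FPKM, fragments per kilobase of gene scaled to library size, is a level per length. It compares genes only as far as the length counted for each gene fits its transcripts. Markers of leukocytes summed to at most 0.0320 FPKM in any library. Of the endothelial markers KDR was at 0 counts in all groups while PECAM1 was at 6.15 to 13.9 FPKM, and of the intestinal markers FABP2 was at 0 while CDX2 was at 57.4 to 77.8 and VIL1 at 15.5 to 29.4 FPKM. The 4 bile duct markers, of which KRT7 was at 0, summed to 120 to 128 FPKM in Huh-7, 118 to 124 in Ako-3 and 166 to 171 in Mko-3 cells, and the part of any of these markers in the results below was not tested. The control libraries differed more from each other than the knockout libraries did, with a chi-square per degree of freedom over genes of 7.06 to 8.89 between pairs of Huh-7 libraries, 3.12 to 3.44 in Ako-3 and 2.40 to 2.79 in Mko-3.

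In the control cells most of the genes were expressed at a high level. APOB and P4HB stood at the top with 224 ± 40.5 and 209.9 ± 9.34 FPKM (SD, n = 3), at ranks 104 and 111 of all genes, where 12692 genes were above 1 FPKM. The ranges of APOB and P4HB overlapped, so their order was within the spread between libraries. It also depends on the length counted, 14828 bases for APOB and 5303 for P4HB. The canonical transcript of APOB holds 14072 different words of 50 bases and that of P4HB only 2388. SURF4 followed with 146 ± 14.2, PLTP with 129 ± 6.26 and MTTP with 116 ± 5.24 FPKM, and the lowest PLTP library met the highest MTTP library at 121 FPKM, so that this pair was barely apart. TM6SF2 at 14.3 ± 1.71, SAR1B at 5.85 ± 0.276 and PDIA2 at 0.697 ± 0.125 FPKM were lower by more than the spread between libraries.

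**Figure D1:**
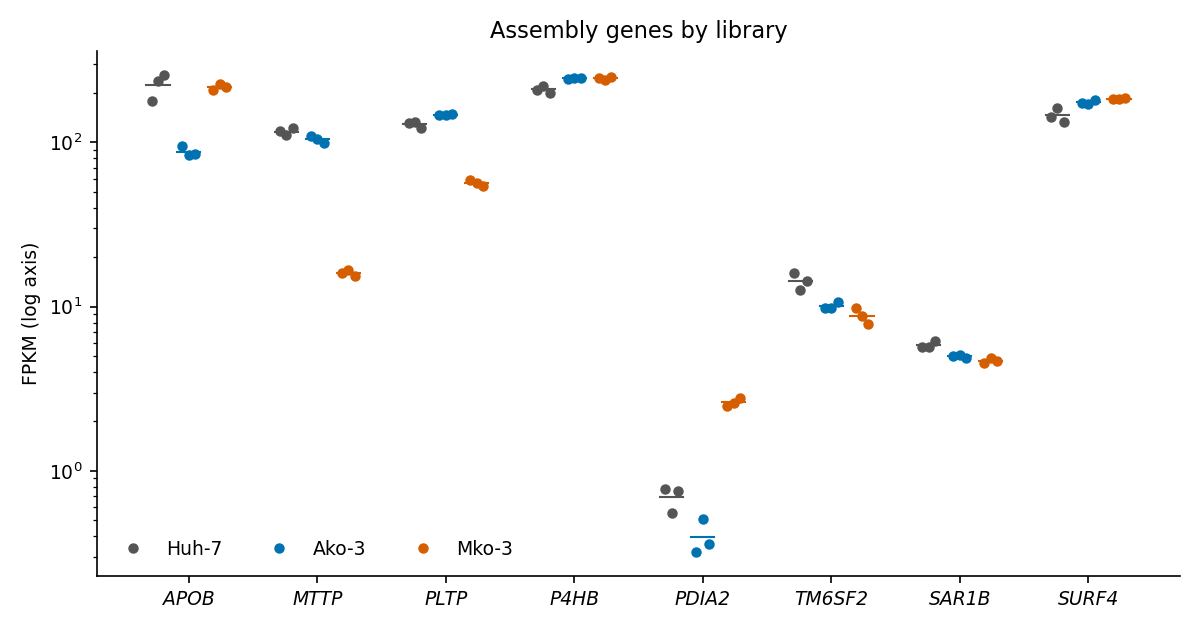
Level of the 8 genes with counts in each library, as FPKM on a log axis, with Huh-7 in grey, Ako-3 in blue and Mko-3 in orange; each point is 1 library and each short line the mean of 3. The 3 Ako-3 points of APOB (83.6 to 94.6) and the 3 Mko-3 points of MTTP (15.3 to 16.6) and PLTP (54.1 to 58.7) sit below all control points, and the 3 Mko-3 points of PDIA2 (2.47 to 2.77) sit above them.

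The targeted genes were compared first. APOB was at 179, 235 and 258 FPKM in the Huh-7 libraries, at 94.6, 83.6 and 84.5 in Ako-3 and at 208, 227 and 218 in Mko-3. All Ako-3 libraries were below all others, while the Mko-3 values lay within the range of the controls. In Ako-3 cells APOB fell by 1.36 ± 0.13 on the log2 scale (SE), to 0.389 of the control level (adjusted p = 7.13e-05, edgeR quasi-likelihood test with Benjamini-Hochberg adjustment, as for every adjusted p below). In bulk RNA fewer cells with a transcript and less of it in each cell cannot be told apart. 21863 to 24701 APOB counts remained in each Ako-3 library, and at 87.5 ± 6.11 FPKM it was still at rank 422 of all genes.

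In Mko-3 cells the log2 fold change of APOB was -0.05 ± 0.12 (adjusted p = 0.74, edgeR). Here 1 control library set the size and the sign: without Huh-7 replicate 1, the lowest of the 3, the value was -0.19 and passed the test (adjusted p = 0.0051, edgeR), and without Huh-7 replicate 3, the highest, it was 0.06.

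MTTP was at 116, 111 and 121 FPKM in Huh-7, at 109.8, 105 and 99.3 in Ako-3 and at 16.0, 16.6 and 15.3 in Mko-3. The Mko-3 libraries stood far below both other groups, and the Ako-3 libraries lay just under the lowest control. MTTP fell by 2.88 ± 0.07 on the log2 scale in Mko-3 cells, to 0.136 of the control level (adjusted p = 9.36e-19, edgeR). Between 1271 and 1587 MTTP counts remained in each Mko-3 library, so the transcript was detected in all of them. In Ako-3 cells MTTP was lower by 0.16 ± 0.06 on the log2 scale (adjusted p = 0.039, edgeR), but adjusted p was above 0.05 in 8 of 15 alternative analyses, among them those without Huh-7 replicate 3 or without any 1 of the Ako-3 libraries, and reached 0.22 (edgeR).

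The mRNA ratio of the targeted genes shifted in opposite ways, and each clone had either its numerator or its denominator gene edited. The shift therefore follows the edited genes and gives no balance of the proteins. The ratio of APOB to MTTP, taken from FPKM within each library, was 1.93 ± 0.34 in Huh-7 (SD, n = 3), 0.836 ± 0.036 in Ako-3 and 13.6 ± 0.63 in Mko-3 cells, and the groups did not overlap.

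Of the 8 genes tested, 1 was called in Ako-3 cells, 3 in Mko-3 cells and 4 between the clones, where a call means a log2 fold change of at least 1 in size at an adjusted p of at most 0.05. Over all genes tested, 8.52% were called in Ako-3 cells, 11.0% in Mko-3 cells and 5.73% between the clones. APOB in Ako-3 and MTTP in Mko-3 cells are the genes that were edited. The calls on other genes were PDIA2 and PLTP, both in Mko-3 cells. At an adjusted p of at most 0.05 alone, 3 of the 8 genes rose and 5 fell in Ako-3 cells, beside 25.5% and 24.4% of all genes. In Mko-3 cells 3 were higher and 4 lower, beside 26.9% and 27.1%, and between Mko-3 and Ako-3 cells 2 were higher and 2 lower, beside 21.1% and 20.6%. These shares show how common calls at adjusted p alone were in the data as a whole. Groups without overlap between libraries were common too, in levels scaled to library size. In Ako-3 against Huh-7 this held for 8 of the 8 genes, beside 57.6% of all genes tested. It held for 7 in Mko-3 against Huh-7, beside 60.7%, and for 5 between the clones, beside 49.8%.

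**Figure D2:**
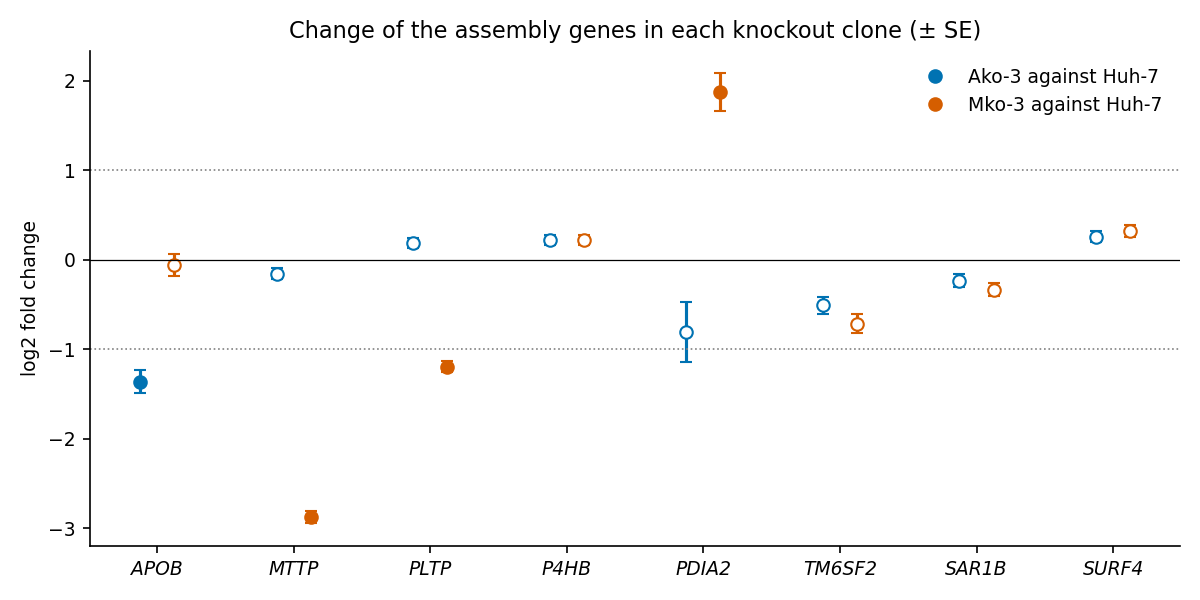
Log2 fold change of the 8 tested genes against Huh-7 in Ako-3 (blue) and Mko-3 cells (orange), with bars of 1 SE; filled points were called and the dotted lines mark a log2 fold change of 1 in size. PDIA2 (-0.81 and 1.87) and PLTP (0.19 and -1.20) lie on opposite sides of 0 in the 2 clones, while P4HB, TM6SF2, SAR1B and SURF4 have the same sign in both.

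P4HB encodes the protein disulfide isomerase that keeps the MTP complex soluble and in the ER. It was at 209, 219.5 and 201 FPKM in Huh-7, at 243, 248 and 245 in Ako-3 and at 248, 239 and 251 in Mko-3. All knockout libraries were above all controls, and the clones overlapped. P4HB rose by 0.22 ± 0.06 on the log2 scale in Ako-3 (adjusted p = 0.0026, edgeR) and by 0.22 ± 0.06 in Mko-3 cells (adjusted p = 0.0025, edgeR), which is about 1.17-fold and 1.16-fold. The difference between the clones was -0.004 ± 0.034 (adjusted p = 0.94, edgeR). The ratio of P4HB to MTTP was 1.81 ± 0.16 in Huh-7, 2.35 ± 0.12 in Ako-3 and 15.4 ± 1.0 in Mko-3 cells (ratio of FPKM within a library, SD, n = 3). Transcripts of another gene hold 18.3% of the words of 50 bases in the P4HB transcript, and the part of this in its level was not tested.

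PDIA2 encodes a disulfide isomerase related to P4HB that is best known from the pancreas. It was the lowest gene with counts, at 33, 19 and 31 raw counts in Huh-7, 12, 23 and 14 in Ako-3 and 99, 103 and 96 in Mko-3. The Mko-3 libraries were far above the other groups, whereas Ako-3 and Huh-7 shared raw counts and were separated only after scaling to library size. PDIA2 rose by 1.87 ± 0.21 on the log2 scale in Mko-3 cells, or 3.66-fold (adjusted p = 1.95e-07, edgeR), and reached 2.61 ± 0.15 FPKM. In Ako-3 cells the difference of -0.81 ± 0.33 was at the threshold (adjusted p = 0.049, edgeR). Adjusted p was above 0.05 in 9 of 15 alternatives, among them those without replicate 1 or replicate 3 of either group, and reached 0.17 (DESeq2).

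PLTP encodes phospholipid transfer protein, which is secreted and also takes part in loading lipid on apoB within the cell. It was at 131, 133 and 121 FPKM in Huh-7, at 146, 147 and 148 in Ako-3 and at 58.7, 56.9 and 54.1 in Mko-3, with no overlap between any groups. PLTP fell by 1.20 ± 0.06 on the log2 scale in Mko-3 cells, to 0.436 of control (adjusted p = 2.56e-12, edgeR). In Ako-3 cells it rose by 0.19 ± 0.06 (adjusted p = 0.011, edgeR), and adjusted p was above 0.05 in 1 of 15 alternatives. Between the clones PLTP was lower in Mko-3 by 1.38 ± 0.04 on the log2 scale (adjusted p = 1.30e-41, edgeR). Exons of other listed genes cover 12.9% of the exonic bases of PLTP, all on the opposite strand. The part of this overlap in its level was not tested.

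The sequences upstream of PLTP and PDIA2 are shown because these genes were called in Mko-3 cells without being edited there. The 250 bases before the RefSeq start farthest upstream are given for PLTP (chr20:45912156-45912405, minus strand) and PDIA2 (chr16:282914-283163, plus strand), both on GRCh38.p14. Capitals mark the matches to the motifs searched on both strands, of which TATAAA and the GC box, GGGCGG, had any here.
PLTP upstream: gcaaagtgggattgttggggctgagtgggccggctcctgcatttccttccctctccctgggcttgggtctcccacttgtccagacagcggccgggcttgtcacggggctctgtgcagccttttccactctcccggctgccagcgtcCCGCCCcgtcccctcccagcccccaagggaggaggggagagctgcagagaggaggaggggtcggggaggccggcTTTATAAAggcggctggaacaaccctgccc
PDIA2 upstream: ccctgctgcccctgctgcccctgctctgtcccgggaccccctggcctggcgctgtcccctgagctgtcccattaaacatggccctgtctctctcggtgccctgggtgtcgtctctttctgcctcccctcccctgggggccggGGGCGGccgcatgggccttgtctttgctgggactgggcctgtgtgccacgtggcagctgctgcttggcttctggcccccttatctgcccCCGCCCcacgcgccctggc
TATAAA was found in PLTP, on both strands in 2 overlapping matches that begin 30 and 28 bases before the start, and in 10.7% of the 35116 promoters of the same length. The GC box was found 1 time in PLTP and 2 times in PDIA2, and in 42.6% of all promoters. CCAAT, in 32.0% of promoters, and AGGTCA, a site of several nuclear receptors found in 12.1%, had no match in either window. The sterol response element TCACNCCAC (0.883% of promoters), repeats of AGGTCA and the ER stress element had none either. The ER stress element was in 0.0740% of promoters, the direct repeats in 0.0142% and 0.0171%, and the inverted repeat in 0.0%. Motifs this rare would be absent from almost any window, so their absence here says nothing about these genes. A match describes the letters in these windows and no binding was measured.

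TM6SF2 encodes a membrane protein of the ER and Golgi that is needed for full lipid loading of secreted particles. It was at 16.0, 12.6 and 14.3 FPKM in Huh-7, at 9.87, 9.79 and 10.7 in Ako-3 and at 9.85, 8.72 and 7.83 in Mko-3. All knockout libraries were below all controls, and the clones overlapped by 1 library. TM6SF2 fell by 0.51 ± 0.10 on the log2 scale in Ako-3 (adjusted p = 0.00022, edgeR) and by 0.72 ± 0.11 in Mko-3 cells (adjusted p = 8.23e-06, edgeR). These falls to 0.703 and 0.609 of control were kept in all 15 alternatives of each comparison. The clones differed by -0.21 ± 0.09 (adjusted p = 0.061, edgeR). Exons of other listed genes cover 46.7% of the exonic bases of TM6SF2, all on the same strand, and the part of this overlap in its level was not tested.

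SAR1B encodes the GTPase that starts the COPII coat, and its loss in people causes the retention of chylomicrons in the intestine. It was at 5.67, 5.70 and 6.16 FPKM in Huh-7, at 5.02, 5.08 and 4.88 in Ako-3 and at 4.53, 4.85 and 4.68 in Mko-3. The control libraries were above all others. SAR1B fell by 0.23 ± 0.07 on the log2 scale in Ako-3 (adjusted p = 0.011, edgeR) and by 0.33 ± 0.07 in Mko-3 cells (adjusted p = 0.00062, edgeR). In Ako-3 the adjusted p was above 0.05 in 2 of 15 alternatives, without Huh-7 replicate 3 and without Ako-3 replicate 3.

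SURF4 encodes the receptor that gathers apoB particles and other cargo at ER exit sites. It was at 143, 161 and 133 FPKM in Huh-7, at 173, 171 and 181 in Ako-3 and at 184, 183 and 186 in Mko-3. The knockout libraries were above all controls. SURF4 rose by 0.26 ± 0.07 on the log2 scale in Ako-3 (adjusted p = 0.0025, edgeR) and by 0.32 ± 0.06 in Mko-3 cells (adjusted p = 0.00022, edgeR). The clones differed by 0.06 ± 0.04 (adjusted p = 0.15, edgeR). Within the machinery that carries apoB out of the ER, the GTPase and the receptor thus moved in opposite directions in both clones, each by less than the threshold of 1.

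CIDEB, a lipid droplet protein that takes part in loading lipid on apoB in hepatocytes, had 0 counts in each of the 9 libraries. A count of 0 allows up to 3 counts in a library, for counting error only. The gene lies on the minus strand at chr14:24305096-24311430, and 100% of its exonic bases in the GENCODE annotation lie within exons of other listed genes on the opposite strand. NOP9 covers 55.9% and LTB4R2 45.2% of them. Of 404 coding genes with at least 95% of their exonic bases inside other genes, 261 (64.6%) were at 0 in all libraries, against 2314 of 14179 (16.3%) among genes with under 5%. Between these limits the share at 0 was 6.46% of 4550 genes with 5% to 50% and 20.1% of 698 genes with 50% to 95%, so it did not rise steadily with overlap. The labels describe second-strand synthesis with dTTP and name no step that marks the strand, which leaves strand use unknown. Without strand, reads in the shared stretches cannot be told apart from those of the partners. Of the 1176 words of 50 bases in the CIDEB transcript, 992 (84.4%) also occur in NOP9 transcripts on either strand. NOP9 had 330 to 439 counts and LTB4R2 34 to 99 counts in each library. Whether the overlap set the CIDEB value of 0 was not tested.

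Genes known to act with the assembly genes were taken from 8 lists, 108 genes in all, described by their counts beside all genes. Proteins that hold or degrade apoB are described first. Of the 19 genes, all tested, 13 rose and 0 fell at adjusted p in Ako-3, with a median log2 fold change of 0.35, and 14 rose and 0 fell in Mko-3, with a median of 0.53. The median over all genes was -0.01 in both. At adjusted p, 25.5% of all genes rose and 24.4% fell in Ako-3 cells. In Mko-3 cells 26.9% rose and 27.1% fell, and the counts of every list below are to be read beside these shares. DNAJB11, a cochaperone of the ER, rose by 0.83 ± 0.07 in Ako-3 and 0.89 ± 0.07 in Mko-3 (adjusted p = 1.43e-08 and 2.26e-09, edgeR). HSPA5, the ER chaperone BiP that binds apoB, was at 145, 180.2 and 145 FPKM in Huh-7, at 268, 274 and 275 in Ako-3 and at 333, 326 and 319 in Mko-3. It rose by 0.80 ± 0.07 and 1.05 ± 0.07. By qRT-PCR the paper saw no significant difference in BiP mRNA between Ako and Huh-7 cells, with or without oleic acid. CALR, the lectin chaperone calreticulin, rose by 0.71 ± 0.06 and 0.73 ± 0.06. HSPA1B, a cytosolic heat shock protein, rose by 1.85 ± 0.13 and 2.11 ± 0.13, though its reads can be divided with the near-identical HSPA1A. HSPA5 and HSPA1B were higher in Mko-3 than in Ako-3 cells, by 0.25 ± 0.03 and 0.25 ± 0.09 (adjusted p = 3.77e-09 and 0.012, edgeR). SORT1, the sorting receptor that binds apoB, was at 0.05 ± 0.07 and 0.13 ± 0.07 and did not pass the test.

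**Figure D3:**
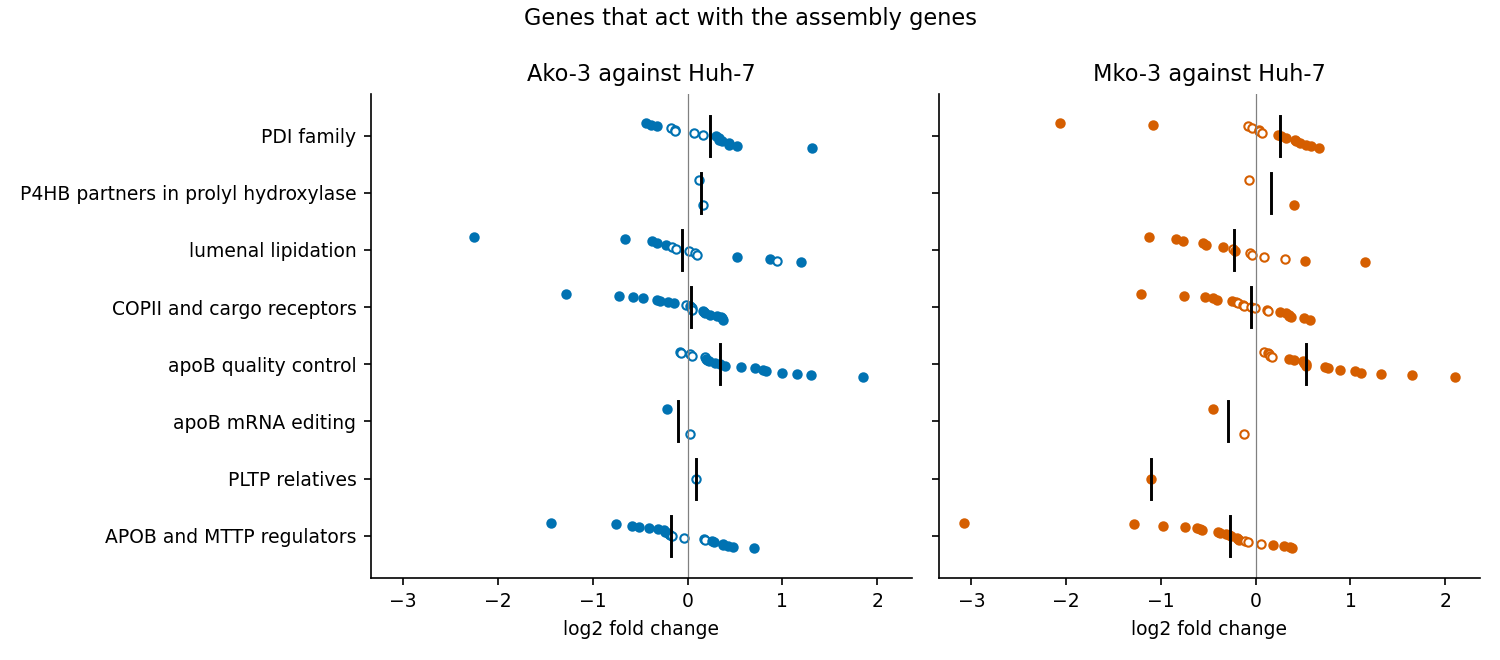
Log2 fold change of each tested gene of the 8 lists in Ako-3 (left, blue) and Mko-3 cells (right, orange); filled points have an adjusted p of at most 0.05 and black bars are list medians. The quality control list has its median at 0.35 and 0.53, and the medians of the lipidation list are -0.05 and -0.23.

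Relatives of P4HB and PDIA2 in the disulfide isomerase family rose more often than they fell. Of 18 genes 16 were tested, and 8 rose and 3 fell in Ako-3 while 9 rose and 2 fell in Mko-3, with medians of 0.23 and 0.26. PDIA4, which aids folding in the ER lumen, rose by 0.44 ± 0.07 in Ako-3 and 0.67 ± 0.07 in Mko-3. PDIA6 rose by 0.44 ± 0.06 and 0.47 ± 0.06, and TMX2, a membrane-bound member, by 0.52 ± 0.06 and 0.53 ± 0.06. AGR2, an isomerase of mucin-secreting cells, was at 9.65, 10.7 and 8.41 FPKM in Huh-7, at 22.1, 23.2 and 26.1 in Ako-3 and at 4.83, 4.68 and 4.15 in Mko-3. It rose by 1.31 ± 0.09 in Ako-3 and fell by 1.08 ± 0.11 in Mko-3, with no overlap between groups. ERO1B, an oxidase that recharges these isomerases, fell by 0.32 ± 0.13 in Ako-3 and by 2.06 ± 0.17 in Mko-3 cells (adjusted p = 0.039 and 2.00e-09, edgeR). Among the alpha subunits of collagen prolyl hydroxylase, the other enzyme that contains P4HB, 2 of 3 were tested, and P4HA2 was at 0.16 ± 0.08 in Ako-3 and rose by 0.40 ± 0.08 in Mko-3 (adjusted p = 0.10 and 0.00015, edgeR).

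Genes known for loading lipid on apoB or for the lipid supply at the ER were mixed. Of 14 tested among 18, 3 rose and 5 fell in Ako-3, and 2 rose and 7 fell in Mko-3. AADAC, a lipase of the ER lumen, was at 33.3, 36.3 and 33.7 FPKM in Huh-7, at 80.0, 83.3 and 74.8 in Ako-3 and at 76.0, 77.8 and 77.1 in Mko-3, so that both clones were above the controls. It rose by 1.20 ± 0.07 and 1.15 ± 0.07 (adjusted p = 2.74e-11 and 1.24e-11, edgeR). LPCAT3, which remodels membrane phospholipids, rose by 0.53 ± 0.08 and 0.52 ± 0.08. The enzymes of the last step of triglyceride synthesis fell in the MTTP knockout: DGAT1 by 0.84 ± 0.07 and DGAT2 by 0.76 ± 0.09. In Ako-3 cells these were at 0.08 ± 0.07 and -0.17 ± 0.08 (adjusted p = 0.39 and 0.11, edgeR), and the clones differed by -0.91 ± 0.05 and -0.60 ± 0.07 (adjusted p = 1.61e-26 and 1.28e-10, edgeR). SMLR1, a small membrane protein linked to lipoprotein secretion, rose by 0.87 ± 0.12 in Ako-3 and was at 0.09 ± 0.14 in Mko-3.

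Genes of the COPII coat and cargo receptors went both ways. Of 21 tested among 22, 8 rose and 8 fell in Ako-3, and 7 rose and 7 fell in Mko-3. SEC24A, a coat subunit that selects cargo, fell by 0.72 ± 0.07 and 0.75 ± 0.08, and SEC24D fell by 0.47 ± 0.08 and 0.41 ± 0.08. LMAN1, the receptor for coagulation factors, fell by 0.58 ± 0.06 and 0.54 ± 0.06. TMED2, a carrier protein of the early secretory path, rose by 0.18 ± 0.06 and 0.57 ± 0.06. SAR1A, the close relative of SAR1B, was counted in the list and rose by 0.37 ± 0.06 and 0.35 ± 0.07, opposite to SAR1B in both clones.

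The remaining lists touched PLTP, APOB editing and transcription. Of the 3 relatives of PLTP, LBP alone was tested. This lipopolysaccharide-binding protein fell by 1.11 ± 0.22 in Mko-3 (adjusted p = 0.0077, edgeR) and was at 0.09 ± 0.20 in Ako-3 (adjusted p = 0.73, edgeR). RBM47, a cofactor of the enzyme that edits APOB mRNA, fell by 0.22 ± 0.06 and 0.45 ± 0.06, and APOBEC1, the enzyme itself, did not reach the filter. Of 22 regulators of APOB or MTTP transcription, 7 rose and 10 fell in Ako-3 (median -0.18), and 4 rose and 14 fell in Mko-3 (median -0.27). HNF4A, an activator of both genes, rose by 0.70 ± 0.06 in Ako-3 and 0.30 ± 0.06 in Mko-3. CEBPB fell by 0.75 ± 0.07 and 1.29 ± 0.07, and CEBPA rose by 0.48 ± 0.07 in Ako-3 and was at -0.08 ± 0.07 in Mko-3, a difference between the clones of -0.55 ± 0.04 (adjusted p = 6.79e-19, edgeR). NR1H4, the bile acid receptor FXR, fell by 0.41 ± 0.07 in Ako-3 and 0.98 ± 0.08 in Mko-3, and NR2F1, a repressor of such genes, fell by 0.25 ± 0.07 and 0.75 ± 0.08.

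The genes beside the targets were examined for changes that extended past them. Around APOB, GDF7, 322 kb away, fell by 0.82 ± 0.11 in Ako-3 and 1.62 ± 0.12 in Mko-3, so the larger fall was in the clone in which APOB was not targeted. LDAH, 178 kb away, was at 0.06 ± 0.08 and -0.07 ± 0.08. AC115619.1, 0.512 kb away, had 5 to 24 counts in a library and rose by 1.28 ± 0.48 and 1.21 ± 0.46 (adjusted p = 0.031 in both, edgeR), though raw counts of Ako-3 and Huh-7 met at 9. On the other side the nearest tested gene, KLHL29, 2341 kb away, was at -0.05 ± 0.08 in Ako-3 and rose by 0.59 ± 0.08 in Mko-3. ATAD2B fell by 0.33 ± 0.11 in Ako-3 and was at -0.18 ± 0.10 in Mko-3, and UBXN2A did not pass the test in either clone.

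Beside MTTP, AC083902.1 is an RNA gene whose span overlaps MTTP on the opposite strand. It had 15, 16 and 21 counts in Huh-7, 21, 21 and 16 in Ako-3 and 8, 2 and 3 in Mko-3. It fell by 1.95 ± 0.50 in Mko-3 (adjusted p = 0.0023, edgeR). Its transcripts hold 35 of the 3871 words of 50 bases in the MTTP transcript on either strand. Without strand, reads in that shared stretch cannot be told apart from those of MTTP. TRMT10A, whose span also overlaps that of MTTP, was at -0.22 ± 0.14 in Mko-3 and -0.46 ± 0.16 in Ako-3 (adjusted p = 0.19 and 0.020, edgeR). LAMTOR3, 254 kb away, was at -0.05 ± 0.10 in Mko-3, and DNAJB14, 272 kb away, fell by 0.38 ± 0.09 in Ako-3 and 0.34 ± 0.09 in Mko-3. ADH1C, 211 kb away, had 3 to 5 counts in Huh-7 and 12 to 22 in the knockouts, and rose by 1.87 ± 0.50 and 2.22 ± 0.45. AP002026.1 did not pass the test in either.

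**Figure D4:**
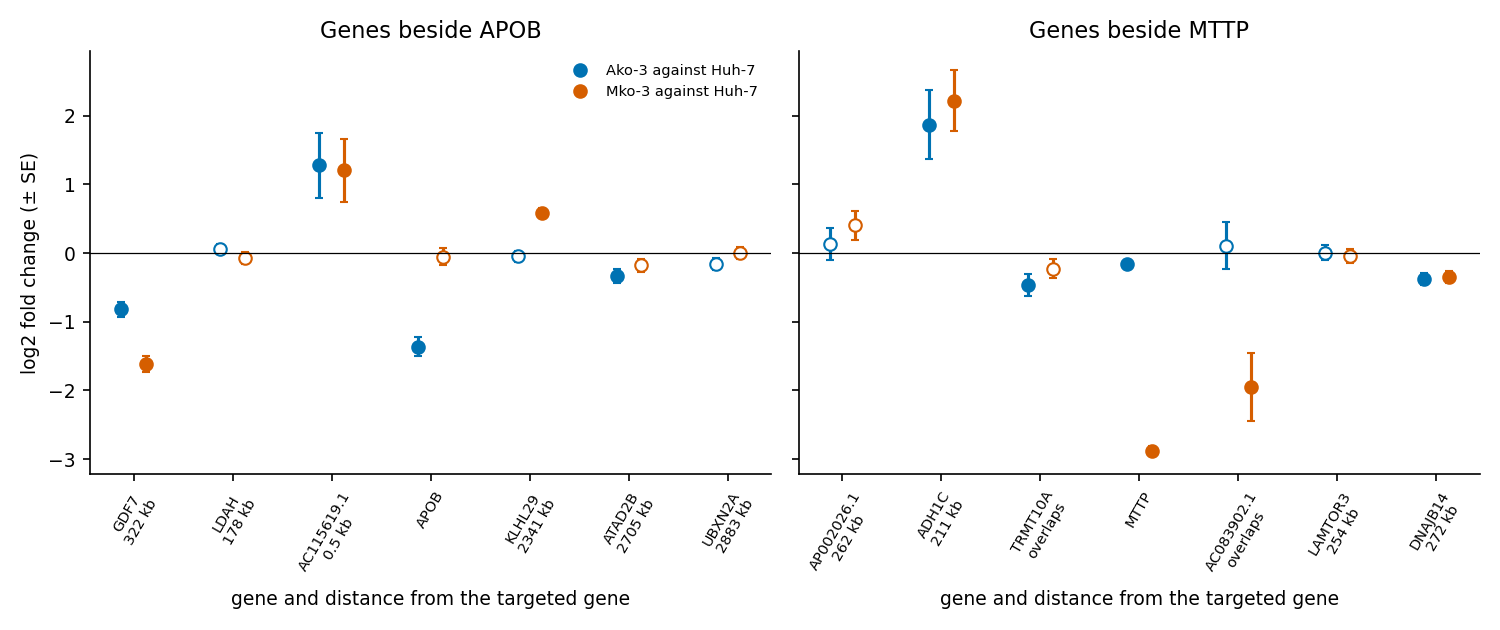
Log2 fold change with bars of 1 SE of the nearest tested genes on each side of APOB (left) and MTTP (right), in order along the chromosome with their distance, in Ako-3 (blue) and Mko-3 cells (orange); filled points have an adjusted p of at most 0.05. APOB fell by 1.36 in Ako-3, and MTTP by 2.88 and the overlapping AC083902.1 by 1.95 in Mko-3.

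The genes whose levels most resembled those of the targets over the 9 libraries were ranked by Pearson's r of log2(CPM + 1) among 9823 other genes with a mean of at least 10 CPM, which are counts per gene scaled to library size with TMM factors and not to gene length. These values describe 9 libraries that share their groups, and no test was made. For APOB they were FKBP14 (r = 0.99), ARFGEF3 (0.98), ARHGAP29 (0.98), EDEM3 (0.98) and AAK1 (0.98). FKBP14 is a prolyl isomerase of the ER, and its means were 31.2 CPM in Huh-7, 18.9 in Ako-3 and 29.6 in Mko-3. For MTTP they were ALDH6A1, FGG, DIP2C, SHANK3 and ST3GAL1, with r of 0.999, 0.997, 0.996, 0.993 and 0.993. FGG, a chain of fibrinogen, had means of 153 CPM in Huh-7, 153 in Ako-3 and 66.0 in Mko-3. Among the assembly genes PLTP was closest to MTTP (r = 0.98), whereas r between APOB and MTTP was -0.45.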

How the data were processed

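The RNA sequencing data of 3 Huh-7, 3 Ako-3 and 3 Mko-3 libraries were used. The authors deposited raw counts per gene, made per the submitters' processing notes with HISAT2 2.0.5 and featureCounts 1.5.0-p3. The study names hg38 as the reference, and the positions in the files match it, while the notes also list GRCh37 and hg19. The authors also deposited FPKM, in which each count is scaled by the length of the gene and by a library total proportional to DESeq2's size factors. Whether counting used strand is not given in the sources used here.

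Counts were tested with edgeR 4.0.16 in R 4.3.3 (TMM scaling, low counts removed by filterByExpr with its minimum of 10, the quasi-likelihood F test with robust priors, and Benjamini-Hochberg adjustment over all genes tested), fitting the 6 libraries of each comparison alone. The study names DESeq2, which was run as an alternative in version 1.42.0. The SE is the log2 fold change divided by the square root of F. A gene was called at a log2 fold change of at least 1 in size and an adjusted p of at most 0.05. CPM values were scaled with TMM over all 9 libraries. The scripts were tested on simulated data. Totals of 14638727 to 20179760 counts limit the precision of genes with few counts, such as PDIA2.

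Other alternatives were RLE and upper quartile scaling, no filter, at least 10 counts in every library, all 9 libraries in 1 fit, limma 3.58.1 on log2(FPKM + 1) and log2(FPKM + 0.1), a replicate block and leaving out each library. The genes and lists were chosen with earlier results of these data known. Named in the text are all 9 genes, from each list up to 3 genes, by adjusted p, in either comparison with Huh-7, the 3 nearest tested genes on each side of APOB and MTTP, and the 5 genes most alike each. SORT1, SAR1A and APOBEC1 were named after their values were seen. Markers, gene positions and overlaps came from the files, GENCODE release 44 and RefSeq tables. Guide RNA and protein sequences were not used here.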

Additional observations from a re-analysis of the deposited data

Results flagged for a closer look

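Of 47 genes, 8 were called when the clones were tested directly against each other (Mko-3 against Ako-3) by edgeR's quasi-likelihood test. Their change against the shared Huh-7 controls thus differed between the clones. The 47 are the assembly genes, the list genes named by adjusted p and the nearest tested genes beside APOB and MTTP. CIDEB is among them but could not be tested. Other genes in the text, such as those most alike APOB and MTTP, were not in this count. Over all genes tested 5.73% were called, but most of the 47 were named for their adjusted p against Huh-7 or as edited genes and their partners, so the counts cannot be compared. The edited genes are 2 of them, APOB with a log2 fold change of 1.31 and MTTP with -2.72. PDIA2 differed by 2.68 and PLTP by -1.38, and for both the values against control had opposite signs in the clones. AGR2 differed by -2.39, with opposite signs as well. ERO1B differed by -1.74 and LBP by -1.20. AC083902.1, which overlaps MTTP, differed by -2.06. The 3 libraries of each knockout come from 1 clone, and differences between clones that editing did not cause cannot be told apart from those it caused.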

How the results depend on the processing

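Over 15 alternatives and 24 values, 330 of 360 kept their direction and their side of the threshold, 20 no longer passed the threshold of adjusted p, 4 newly passed it and 6 changed sign. The changes of sign were in values near 0: APOB in Mko-3 against Huh-7 ranged from -0.188 to 0.0613 with 1 library left out, above 0 without Huh-7 replicate 3 and past the threshold without Huh-7 replicate 1, and P4HB in Mko-3 against Ako-3 was 0.00102 with no filter, 0.0033 with limma on log2(FPKM + 1) and on log2(FPKM + 0.1), and from -0.0164 to 0.0142 with 1 library left out (0.0055 without Ako-3 replicate 2, the highest without Mko-3 replicate 2). The cause was not tested. With 1 library left out, the number of genes called in Ako-3 ranged from 1 to 2, the second being PDIA2 without Ako-3 replicate 2, and the number at adjusted p ranged from 5 to 8, with 5 without Huh-7 replicate 3 or Ako-3 replicate 3. Over all genes, limma on log2(FPKM + 1) called 316, 428 and 200 genes in the 3 comparisons and the filter of 10 counts in every library 841, 1113 and 511, against 1345, 1739 and 890. Replicate numbers did not pair the libraries, since deviations of same-numbered libraries correlated between -0.14 and 0.11. With the replicate block APOB in Ako-3 and MTTP in Mko-3 kept their calls, MTTP and PDIA2 in Ako-3 no longer passed at adjusted p with log2 fold changes of -0.16 and -0.81, TM6SF2 passed between the clones, and 6 in place of 8 genes were at adjusted p in Ako-3. Genes with few counts, PDIA2 and AC083902.1 among them, have wide errors at this depth.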
